A study of Mus musculus with 6 samples.

Results

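The genes described here are 9 that serve the presentation of antigen on MHC class II molecules, chosen by symbol as H2-Aa, H2-Ab1, H2-Eb1, H2-DMa, H2-DMb1, Cd74, Ciita, Cd80 and Cd86, of 19790 genes in a table of RNA-seq read counts. The RNA came from gWAT, the gonadal depot of white fat that lies beside the reproductive organs inside the abdomen. All mice were wild-type C57BL/6, and male by the study's methods. There were 3 samples from mice on a normal chow diet (NCD) and 3 from mice on a high-fat diet (HFD), each fed for 8 weeks, with the start of the diet at 6 weeks of age by the labels and at 8 weeks by the methods. Samples are called biological replicates in the series, and each is taken here as 1 mouse, which the labels do not state. The comparison of HFD with NCD asks which genes of the class II pathway differed in RNA level between the diets.

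MHC class II molecules are pairs of an alpha and a beta chain that carry peptides from endosomes to the cell surface, where CD4 T cells read them. The invariant chain, encoded by Cd74, guides new class II molecules to the endosome and blocks their groove, H2-DM helps to exchange the remaining fragment for antigen peptides, and CIITA is the transcriptional co-activator that class II promoters depend on. CD80 and CD86 are surface proteins of antigen-presenting cells that bind CD28 and CTLA-4 on T cells. In fat, macrophages, dendritic cells and B cells carry class II molecules, and adipocytes have also been described to do so.

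Class II promoters are known for an X box, bound by the RFX complex, and a Y box, bound by NF-Y, set a fixed distance apart. Windows around these boxes are shown because the members of this locus moved together across the 6 mice. Whether the boxes bear on that pattern was not tested. The windows were read from the RefSeq promoter table of build GRCm38.p6, which covers 250 bases before to 50 bases after each start it lists. The entries searched were those of H2-Aa, H2-Eb1, H2-DMa, H2-DMb1 and Cd80, and those of the other class II genes H2-Oa, H2-Ob, H2-Eb2 and H2-DMb2. H2-Ab1, Cd74, Ciita and Cd86 were not in the table. Each sequence runs 5′ to 3′ on the gene's strand, with the letters GNAAC of the X box and TGATTGG of the Y box in capitals. The letters and a spacing of 25 to 35 bases between their starts were chosen after the sequences had been seen.
H2-Aa: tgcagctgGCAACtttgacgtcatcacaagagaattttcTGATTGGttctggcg
H2-Eb1: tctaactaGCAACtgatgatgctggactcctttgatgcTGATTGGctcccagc
H2-DMb1: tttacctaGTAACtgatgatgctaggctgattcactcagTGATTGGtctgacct
H2-Oa: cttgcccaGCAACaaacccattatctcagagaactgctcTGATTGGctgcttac
H2-Ob: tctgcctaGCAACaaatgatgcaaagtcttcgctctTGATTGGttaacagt
H2-Eb2: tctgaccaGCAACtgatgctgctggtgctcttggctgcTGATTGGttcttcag

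The window of H2-Aa lies at chr17:34287859-34287912 on the minus strand, with the Y box letters 50 bases before the start of the gene. The windows of H2-Eb1 (chr17:34305768-34305820) and H2-DMb1 (chr17:34153089-34153142) are on the plus strand, with the Y box letters 61 and 63 bases before the start. The starts of the X and Y letters were 31 bases apart in H2-Aa, 30 in H2-Eb1 and 31 in H2-DMb1. H2-Oa, H2-Ob and H2-Eb2 are class II genes outside the 9 and are shown because they hold the same pair of boxes. Of the genes shown, only H2-DMb1 passed the test of diet given further on. The pair was 31 bases apart in H2-Oa (chr17:34092295-34092348), 28 in H2-Ob (chr17:34238810-34238860) and 30 in H2-Eb2 (chr17:34325535-34325587). Searched on both strands, the Y box letters occurred in 7.82% of 32851 promoters of the table, and the X and Y letters at this spacing in 0.323%. The entry of H2-DMb2 held the Y letters but not the pair. The windows of H2-DMa and Cd80 held neither the Y letters nor the pair, which says only that these letters are not in those windows. The H2-DMa entries (chr17:34122582-34122881 and chr17:34125268-34125567) and the Cd80 entry (chr16:38458683-38458982) do not reach the gene starts given further on.

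Total counts per library were between 49575113 and 66360046, and 15241 genes passed the filter on low counts. Secretory genes of the seminal vesicle (11 genes) took 58.6% of the library of NCD replicate 1, had 11.2% and 2.30% of those of NCD replicates 2 and 3, and received 2 to 8 counts in each HFD mouse. Levels are therefore given as CPM, counts relative to the library's total, scaled by TMM, a method that sets the libraries to a common level over most genes, with a scaling factor of 0.496 for NCD replicate 1 and of 1.02 to 1.27 for the rest. Adipocyte markers (6 genes, Adipoq and Plin1 among them) summed to 3507 CPM in NCD replicate 1 and to between 11059 and 18807 CPM in the other 5 mice, so that the labelled tissue was seen in each library and least in this one. Results that include this mouse are given with and without it.

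All 9 genes passed the filter and all 9 were higher on HFD, with no overlap between the diets in any of them. Cd80 was upregulated 4.82-fold, H2-DMb1 3.20-fold, Cd86 2.29-fold and H2-DMa 2.28-fold on HFD, and these 4 passed edgeR's quasi-likelihood test at an adjusted p under 0.05. The 3 classical chains, the invariant chain and Ciita were 2.37-fold to 2.60-fold higher and did not pass. In these genes HFD replicate 1 was 1.83-fold to 2.69-fold above the mean of the other HFD mice. It was also above that mean in H2-DMb1 (1.82-fold) and H2-DMa (1.57-fold), which passed. The median log2 difference of the 9 genes was 1.29, against -0.08 over all genes tested, and without NCD replicate 1 it was 1.17 against 0.02. The count of 4 in 9 stands beside 5.58% of all genes that were higher and passed, and without NCD replicate 1 the same 4 genes passed, beside 10.7% of all genes. Every HFD mouse lay above every NCD mouse in 9 of 9 members and in 20.5% of all genes tested. In RNA of a whole tissue, a larger number of cells of a type and more RNA per cell cannot be told apart.

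The calls depended on the mice included. When any one of NCD replicates 2 and 3 or the 3 HFD mice was left out, edgeR called 0 of the 9 members, although 5 to 9 of them had an unadjusted p under 0.05 and all kept their direction. In these fits only 2 to 7 genes passed in the whole table, against 1139 in all 6 mice. With all 6 mice, 9 of 9 members and 4524 of 15241 genes tested had an unadjusted p under 0.05. Without both NCD replicate 1 and HFD replicate 1, the same 4 members passed again. In that fit 3865 genes passed in the whole table, 2111 of them higher on HFD. DESeq2 on all 6 mice called 9 of 9 members and 3853 genes in the whole table, 2100 of them higher on HFD. Both totals were above the 1139 of edgeR's fit of all 6 mice, so more genes passed outside the members as well. An exact two-sided permutation test of 3 mice against 3 gave p = 0.1 for each member, the smallest value that it can give.

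**Figure D1:**
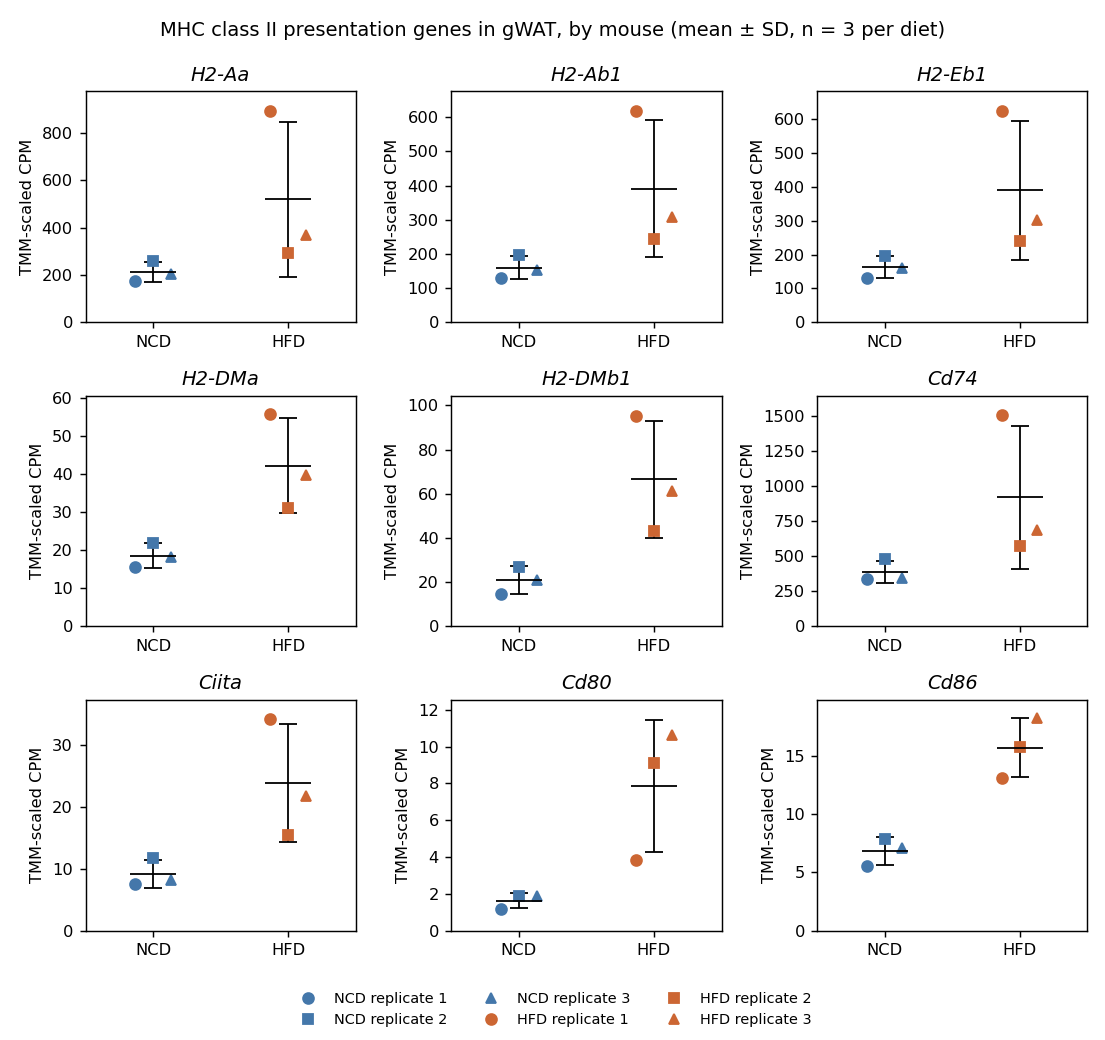
TMM-scaled CPM of each of the 9 genes (y axis, from 0) in each mouse of the 2 diets (x axis); symbols mark the replicate, the long line is the mean and the bar is the SD over 3 mice. HFD replicate 1 is the highest mouse for 7 genes and the lowest HFD mouse for Cd80 and Cd86.

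H2-Aa encodes the alpha chain of the class II molecule I-A (17:34282744-34287823, GRCm38, as are all positions of genes given here). Its level in NCD replicates 1, 2 and 3 was 173, 258 and 204 CPM, and in HFD replicates 1, 2 and 3 it was 894, 293 and 371 CPM. HFD replicate 1 thus stood 2.69-fold above the mean of the other two HFD mice, while the lowest HFD mouse was 1.13-fold above the highest NCD mouse. Means were 212 ± 43.1 CPM on NCD and 519 ± 327 CPM on HFD (SD, n = 3 each), and the log2 fold change was 1.29 (SE 0.467, edgeR adjusted p = 0.132). It was 1.18 without NCD replicate 1 and 0.66 without HFD replicate 1, so that the size rested in large part on the latter mouse.

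H2-Ab1, the beta chain of I-A (17:34263227-34269418), had 129, 197 and 154 CPM on NCD and 619, 243 and 309 CPM on HFD. The order of the mice was that of H2-Aa, with HFD replicate 1 alone at the top. The log2 fold change was 1.29 (SE 0.401, edgeR adjusted p = 0.0985), and it was 1.17 without NCD replicate 1 and 0.80 without HFD replicate 1. H2-Eb1, the beta chain of the second class II molecule, I-E (17:34305867-34316674), had 132, 196 and 160 CPM on NCD and 626, 241 and 304 CPM on HFD. Its values followed those of H2-Ab1 closely in every mouse. The log2 fold change of H2-Eb1 was 1.26 (SE 0.404, edgeR adjusted p = 0.104), 1.14 without NCD replicate 1 and 0.75 without HFD replicate 1. The alpha chain gene of I-E, H2-Ea, was not among the genes with counts, so H2-Eb1 RNA is not read here as a measure of an I-E molecule.

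Cd74, the invariant chain (18:60803849-60812652), had 339, 477 and 347 CPM on NCD and 1504, 569 and 686 CPM on HFD. Again a single HFD mouse stood apart, 2.40-fold above the mean of the other two. The log2 fold change was 1.25 (SE 0.436, edgeR adjusted p = 0.125), 1.17 without NCD replicate 1 and 0.70 without HFD replicate 1. Ciita, the co-activator (16:10480014-10531064), had 7.52, 11.7 and 8.22 CPM on NCD and 34.2, 15.5 and 21.8 CPM on HFD. HFD replicate 1 was 1.83-fold above the other two HFD mice, a smaller distance than that of the chains. The log2 fold change of Ciita was 1.38 (SE 0.346, edgeR adjusted p = 0.0637), 1.27 without NCD replicate 1 and 1.04 without HFD replicate 1.

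H2-DMa and H2-DMb1 encode the chains of H2-DM, the endosomal peptide exchanger (17:34119693-34139101 and 17:34153191-34160229). H2-DMa had 15.5, 21.9 and 18.1 CPM on NCD and 55.6, 31.0 and 39.8 CPM on HFD. H2-DMb1 had 14.4, 27.1 and 21.0 CPM on NCD and 95.4, 43.2 and 61.4 CPM on HFD. Both were upregulated, with HFD replicate 1 highest and the 3 NCD mice well below all HFD mice. The log2 fold change of H2-DMa was 1.19 (SE 0.261, edgeR adjusted p = 0.0496) and 1.09 without NCD replicate 1 (adjusted p = 0.0403). That of H2-DMb1 was 1.68 (SE 0.366, edgeR adjusted p = 0.0494) and 1.48 without NCD replicate 1 (adjusted p = 0.0376). Both lie close to the threshold with all 6 mice, and without HFD replicate 1 the values were 0.94 and 1.34, each with an adjusted p of 0.113. H2-DMb1 has a near-identical neighbour, H2-DMb2, and the chains of I-A and I-E are related as well. The sources used here do not say how reads that match more than one of them were counted.

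Cd80 (16:38457430-38495958) and Cd86 (16:36568956-36666158), the costimulatory ligands, followed a different order of mice. Cd80 had 1.16, 1.86 and 1.86 CPM on NCD and 3.81, 9.11 and 10.6 CPM on HFD. Cd86 had 5.57, 7.89 and 7.05 CPM on NCD and 13.1, 15.7 and 18.2 CPM on HFD. HFD replicate 1, the mouse with the highest class II chains, was the lowest HFD mouse for both, at 0.386 of the mean of the other two for Cd80 and 0.774 for Cd86. The log2 fold change of Cd80 was 2.27 (SE 0.461, edgeR adjusted p = 0.0427), the largest of the 9 genes, and 2.10 without NCD replicate 1 (adjusted p = 0.0355). That of Cd86 was 1.20 (SE 0.226, edgeR adjusted p = 0.0360), with the smallest standard error of the 9, and 1.08 without NCD replicate 1 (adjusted p = 0.0187). Unlike the chains, both were larger without HFD replicate 1, at 2.61 and 1.32, with adjusted p of 0.0561 and 0.0692. Cd80 rested on few reads, 38 to 111 counts in the NCD mice and 220 to 760 in the HFD mice.

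**Figure D2:**
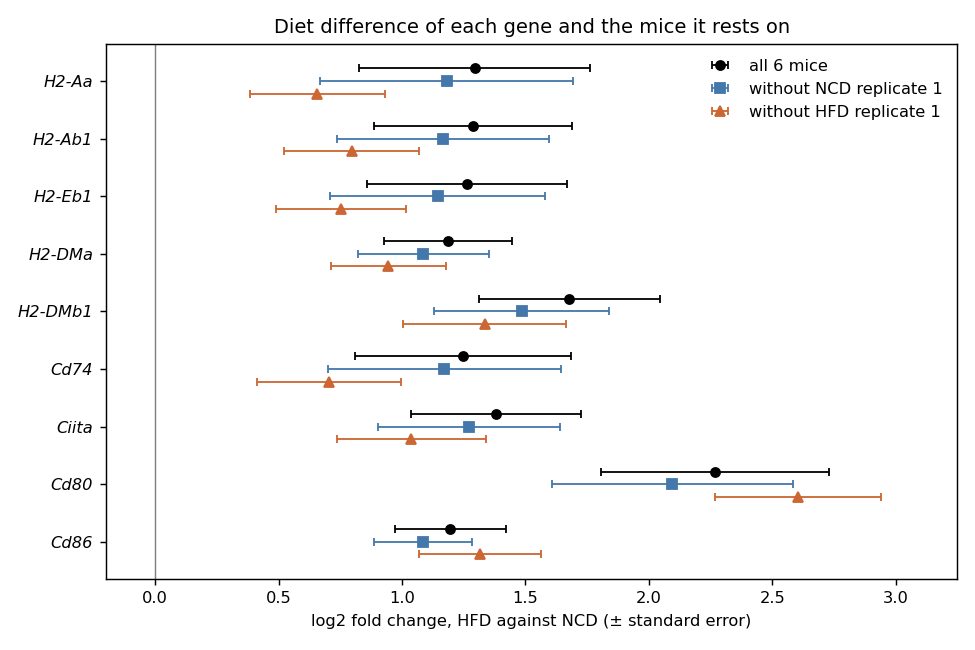
Log2 fold change of each gene, HFD against NCD (x axis), in edgeR's fit of all 6 mice (black), without NCD replicate 1 (blue) and without HFD replicate 1 (orange); bars are the standard error. Leaving out HFD replicate 1 lowers H2-Aa from 1.29 to 0.66 and raises Cd80 from 2.27 to 2.61, and all values stay above 0.

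Levels of different genes were compared within each mouse as FPKM, which divides a gene's share of the counts by its exon length, computed here from GENCODE exons. Cd74 had the highest FPKM in every mouse, followed in every mouse by H2-Aa, H2-Ab1, H2-Eb1, H2-DMb1, H2-DMa and Cd86 in this order. In NCD replicate 2, for instance, FPKM values were 344 for Cd74, 234 for H2-Aa, 166 for H2-Ab1 and 120 for H2-Eb1, then 19.7 for H2-DMb1, 8.40 for H2-DMa and 3.18 for Cd86. Classical chains and H2-DM were thus separated by a wide step in RNA level. Exon length merged all exons of a gene's GENCODE transcripts, 2668 bases for H2-DMa and 1404 for H2-DMb1. In NCD replicate 1 the order of H2-DMb1 above H2-DMa rests on these lengths, since their counts were 474 and 508. The order of the last places differed between mice. Ciita had the higher FPKM of Ciita and Cd80 in all NCD mice and in HFD replicate 1, with 1.46 against 0.512 in NCD replicate 2 and 4.81 against 1.19 in HFD replicate 1. Cd80 was the higher of the pair in HFD replicates 2 and 3, with 3.09 against 2.37 FPKM and 3.63 against 3.36 FPKM. FPKM over total counts also carry the seminal vesicle share of NCD replicate 1, where H2-Aa had 76.1 FPKM, so they are used here only for the order within a mouse.

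Ratios between genes within a mouse do not depend on how libraries are scaled, and 10 pairs were compared with an exact two-sided permutation test, adjusted over the 10 (smallest possible p 0.1). Chains kept nearly fixed proportions while their levels spanned 4.80-fold (H2-Ab1) and 5.16-fold (H2-Aa) over the 6 mice. Counts of H2-Eb1 per count of H2-Ab1 were 1.02, 0.993 and 1.04 on NCD and 1.01, 0.991 and 0.984 on HFD, and the mean log2 difference between the diets was -0.03 (p = 0.2, exact permutation test). H2-Aa per H2-Ab1 was 1.34, 1.31 and 1.32 on NCD and 1.44, 1.20 and 1.20 on HFD (exact permutation p = 0.6). Cd74 per H2-Ab1 was 2.63, 2.42 and 2.25 on NCD and 2.43, 2.34 and 2.22 on HFD (exact permutation p = 0.5). HFD replicate 1 did not stand apart in the first and the last of these ratios, although its levels did. Ciita per H2-Ab1 was between 0.0535 and 0.0595 on NCD and between 0.0553 and 0.0708 on HFD, with overlapping diets (exact permutation p = 0.3).

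H2-DMb1 per H2-DMa was 0.933, 1.23 and 1.16 on NCD and 1.72, 1.39 and 1.54 on HFD. All HFD mice lay above all NCD mice, with a mean log2 difference of 0.49 that was between 0.37 and 0.57 when each mouse was left out (exact permutation p = 0.1, adjusted p = 0.25). H2-DMa per H2-Ab1 was lowest in HFD replicate 1, at 0.0898 against 0.111 to 0.129 in the other 5 mice. Cd86 per Cd80 was 4.77, 4.24 and 3.78 on NCD and 3.44, 1.72 and 1.71 on HFD. This ratio was lower in every HFD mouse, with a mean log2 difference of -0.97 (exact permutation p = 0.1, adjusted p = 0.25). Cd86 per H2-Ab1 was 0.0212 in HFD replicate 1 but 0.0646 and 0.0590 in the other HFD mice, on either side of the NCD values of 0.0401 to 0.0459. No difference between the diets could therefore be stated for it (exact permutation p = 1.0).

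**Figure D3:**
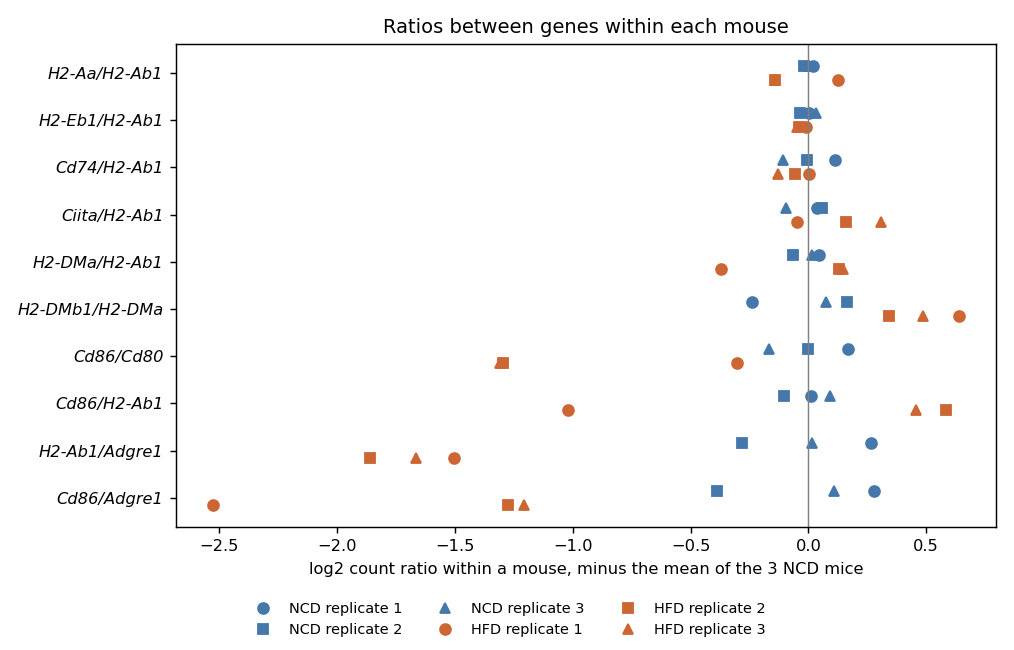
Log2 ratio of the counts of 2 genes within each mouse, with the mean of the 3 NCD mice subtracted (x axis), for 10 pairs (y axis); blue points are NCD mice and orange points HFD mice, with a symbol for each replicate. H2-Eb1/H2-Ab1 and Cd74/H2-Ab1 stay close to 0 in all mice, and H2-Ab1/Adgre1 lies below -1.5 in the HFD mice.

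Macrophage markers were set beside the class II genes, since macrophages are a major class II carrier of fat. Adgre1, the F4/80 antigen, had 25.5, 57.2 and 36.2 CPM on NCD and 418, 211 and 233 CPM on HFD, and was upregulated 7.25-fold (edgeR adjusted p = 0.0238). H2-Ab1 counts per count of Adgre1 were 5.05, 3.45 and 4.25 on NCD and 1.48, 1.16 and 1.33 on HFD. This ratio was 3.20-fold lower on HFD, without overlap (exact permutation p = 0.1, adjusted p = 0.25), and the log2 difference was between -1.82 and -1.54 with any mouse left out. Cd86 per Adgre1 was lower as well, with a mean log2 difference of -1.67 (exact permutation p = 0.1, adjusted p = 0.25). Set to each of the 8 macrophage markers of the list, an alternative chosen after the data had been seen, H2-Ab1 per count of the marker was lower on HFD without overlap for 2 (Adgre1 and Cd68), overlapped between the diets for 5 (Itgam, Fcgr1, Csf1r, Mrc1 and Lyz2) and was 1.91-fold higher without overlap for Mertk. The ratio was 4.07-fold lower on HFD for Cd68, 3.64-fold for Fcgr1 and 2.84-fold for Itgam. For Mrc1, Lyz2 and Csf1r it was 1.83-fold, 1.42-fold and 1.38-fold lower, and 0 of 8 passed (exact permutation, lowest adjusted p = 0.267). The size of the difference thus depended on the marker, and the mean ratio was higher on HFD only for Mertk. Among the HFD mice, replicate 1 was the highest for 5 of the 8 markers, Adgre1 and Cd68 included, and the lowest for Itgam, Fcgr1 and Mrc1.

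Of 8 macrophage markers, 4 were upregulated on HFD (Adgre1, Cd68, Itgam and Fcgr1), and the summed level of the list was between 401 and 924 CPM on NCD and between 2289 and 3475 CPM on HFD. Cd68, a lysosomal glycoprotein of macrophages, rose by a log2 fold change of 3.17 (edgeR adjusted p = 0.0231), and Itgam, the CD11b integrin, rose 6.25-fold (adjusted p = 0.0240). All 3 pan-leukocyte markers rose, Ptprc (CD45) by 2.57-fold (edgeR adjusted p = 0.0360), Cd53 by 6.77-fold and Laptm5 by 5.22-fold. Dendritic cell markers summed to between 31.0 and 34.4 CPM on NCD and between 67.4 and 196 CPM on HFD, and 0 of 8 passed edgeR's test, with 3 at an unadjusted p under 0.05 and 3 called by DESeq2. In the HFD mice most of that sum was Itgax, the CD11c integrin that macrophages of obese fat also carry, with 13.9, 11 and 7.18 CPM on NCD and 169, 36.0 and 43.1 CPM on HFD (log2 fold change 2.96, edgeR adjusted p = 0.0549; 3.20 and 0.0441 without NCD replicate 1, 1.90 and 0.0603 without HFD replicate 1). It stood 4.28-fold higher in HFD replicate 1 than in the other two HFD mice. Flt3, the growth factor receptor of dendritic cells, had 2.53 to 3.93 CPM on NCD and 4.68 to 9.10 CPM on HFD (edgeR adjusted p = 0.0910), and Ccr7, their migration receptor, had an adjusted p of 0.119.

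Lymphocyte markers gave no call between the diets. The summed level of the 6 B cell markers was highest in the third replicate of both diets, at 19.8 CPM on HFD, and lay between 5.08 and 9.53 CPM in the other 4 mice. Among B cell markers, Cd79b, Cr2 and Ms4a1 had the smallest p, with log2 fold changes of 0.44, -0.80 and -0.49. The 6 T cell markers summed to between 13.5 and 16.9 CPM on NCD and between 13.7 and 21.5 CPM on HFD. Cd3e had a log2 fold change of -0.35 (edgeR adjusted p = 0.653), and Lck, Cd3d and Cd247 had 0.46, 0.42 and 0.45. Cd4, the co-receptor that binds class II, had 1.14 to 2.49 CPM on NCD and 1.11 to 2.55 CPM on HFD. In either list 0 of 6 genes passed edgeR's test, 0 had an unadjusted p under 0.05 and DESeq2 called 0. No marker of the macrophage, dendritic, B and T cell lists was at 0 in any library, and the part of these cell types in the class II differences was not tested.

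Other class II genes were measured at low counts. H2-Oa and H2-Ob encode H2-O, which holds back H2-DM, and had log2 fold changes of 0.57 (edgeR adjusted p = 0.376) and 0.52 (0.472). H2-Eb2 had 0.98 (adjusted p = 0.201). H2-DMb2, the neighbour of H2-DMb1, had 2.44, 3.80 and 3.74 CPM on NCD and 7.28, 4.96 and 6.98 CPM on HFD, without overlap, at a log2 fold change of 0.94 (edgeR adjusted p = 0.0991). In all, 0 of these 4 genes passed edgeR's test, 1 had an unadjusted p under 0.05 and DESeq2 called 1. Their median was 0.76, beside 1.29 for the 9 members. H2-Oa and H2-Ob had their highest value in HFD replicate 3, not in the mouse with the highest chains.

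Subunits of the factors that bind the X and Y boxes were measured in 7 genes, with a median of -0.12, of which 1 passed. Nfya, the NF-Y subunit that contacts the Y box, rose from 27.0 ± 4.78 to 49.8 ± 7.43 CPM (n = 3 each; log2 fold change 0.88, edgeR adjusted p = 0.0484). Rfx5 and Rfxap, subunits of the RFX complex, had values of 0.20 (edgeR adjusted p = 0.583) and 0.12 (adjusted p = 0.623). The third RFX subunit, Rfxank, had -0.46 (adjusted p = 0.211), and the other NF-Y subunit among the 3 smallest p, Nfyc, had -0.36 (adjusted p = 0.185).

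Of 10 genes of the endosome that make class II peptides, trim the invariant chain or set the surface level of class II, 7 rose, and their median log2 difference was 1.76. Ctss, the cathepsin that cleaves the invariant chain in antigen-presenting cells, had 91.6, 167 and 118 CPM on NCD and 1363, 897 and 1196 CPM on HFD. It was 9.17-fold higher, without overlap (log2 fold change 3.20, SE 0.347, edgeR adjusted p = 0.0212). Lgmn, the asparaginyl endopeptidase, rose from 87.2 ± 34.2 to 792 ± 212 CPM (log2 fold change 3.18, edgeR adjusted p = 0.0219). Ifi30, the thiol reductase GILT, rose from 49.2 ± 10.8 to 198 ± 46.2 CPM (2.01, adjusted p = 0.0219). In these 3 genes HFD replicate 1 was at 1.30, 0.760 and 0.899 of the mean of the other two HFD mice. It did not stand apart in them as it did for the chains. Elsewhere in the list it was at 1.80 of that mean for Ctsd, 1.62 for Ctsl and between 0.854 and 1.32 for the rest. Marchf1, the ubiquitin ligase that takes class II and CD86 off the surface, was singled out after its values had been seen, and rose from 11.1 ± 3.13 to 36.8 ± 9.07 CPM (1.73, edgeR adjusted p = 0.0260).

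Interferon-gamma is the classical inducer of Ciita. Ifng itself had 0.10 to 0.396 CPM on NCD and 0.156 to 0.479 CPM on HFD, a low level, with a log2 fold change of 0.39 (edgeR adjusted p = 0.730). Irf1, a transcription factor induced by interferon-gamma, had 29.9 to 52.6 CPM on NCD and 67.8 to 89.3 CPM on HFD (log2 fold change 0.87, edgeR adjusted p = 0.0860, and 0.67, adjusted p = 0.0363, without NCD replicate 1). Of 11 genes of this list, 3 rose, with a list median of 0.72. They were Spi1 (PU.1, 2.67, edgeR adjusted p = 0.0214) and Irf8 (1.30, adjusted p = 0.0257), factors of the myeloid lineage, and the receptor chain Ifngr2 (1.24, adjusted p = 0.0332).

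Of the other costimulatory genes, 11 of 12 were tested and 2 rose, with a median of 0.79. Cd40, which receives help from T cells on antigen-presenting cells, rose from 2.82 ± 0.859 to 10.4 ± 3.39 CPM (log2 fold change 1.89, edgeR adjusted p = 0.0402). Like Cd80 and Cd86 it was lowest in HFD replicate 1 among the HFD mice, at 6.81 against 11 and 13.5 CPM. Cd276 (B7-H3), a B7 relative found on many cells, rose from 2.03 ± 0.807 to 9.56 ± 1.03 CPM (2.23, adjusted p = 0.0253), and Icosl had 0.79 (adjusted p = 0.104). The class I pathway was taken for comparison, and 0 of its 11 genes passed edgeR's test, with 3 at an unadjusted p under 0.05, 2 called by DESeq2 and a median of 0.71. H2-K1, a class I heavy chain, had a log2 fold change of 0.58 (edgeR adjusted p = 0.341), and Nlrc5, the class I counterpart of CIITA, had 0.84 (adjusted p = 0.199). The smallest p were those of Psmb10 (1.10), Tapbp (0.81) and Erap1 (0.40). B2m had 14822 CPM in NCD replicate 1 and 2403 to 3552 CPM in the other 5 mice, so its value of -1.17 became 0.06 without that mouse.

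**Figure D4:**
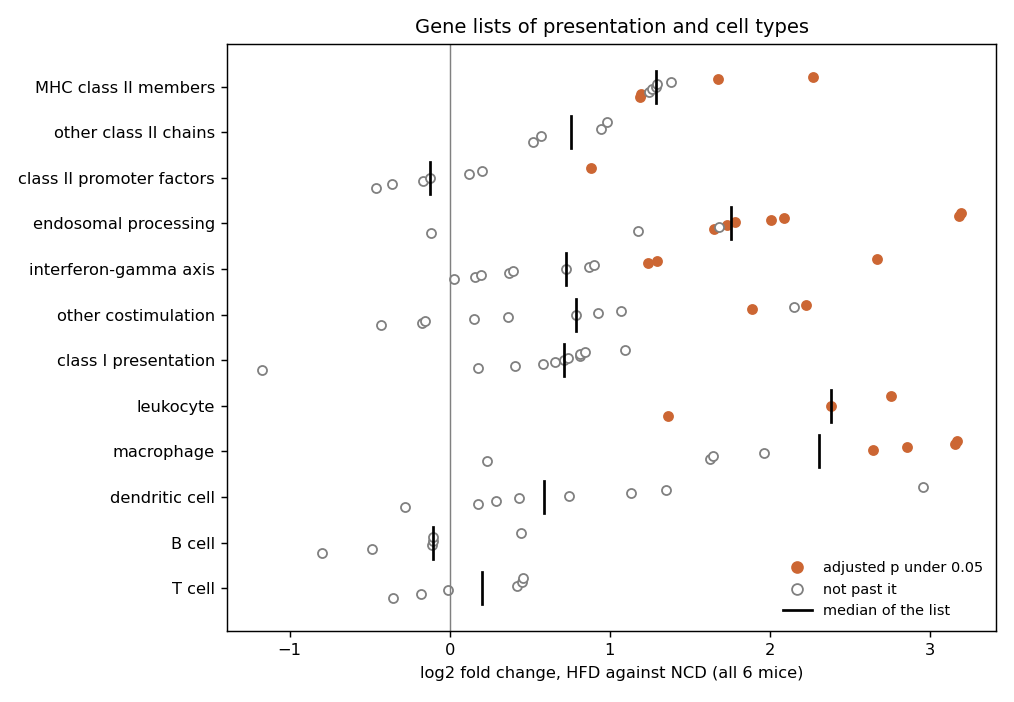
Log2 fold change, HFD against NCD (x axis), of each tested gene of the lists (y axis) in edgeR's fit of all 6 mice; filled points have an adjusted p under 0.05, open points do not, and black bars are list medians. The 9 members lie between 1.19 and 2.27, endosomal enzymes and macrophage markers reach beyond 3, and the B cell and T cell medians are at -0.11 and 0.20.

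The remaining marker lists described the tissue. Of 6 adipocyte, 4 endothelial, 5 epithelial and 4 smooth muscle markers, 0 passed edgeR's test, and the numbers at an unadjusted p under 0.05 and called by DESeq2 were 0 and 0, 0 and 0, 3 and 3, and 3 and 3. Epithelial and smooth muscle markers were highest in NCD replicate 1, at 1120 and 4728 CPM in sum, against 33.6 to 141 and 158 to 555 CPM in the other 5 mice. In that mouse 9 of 9 class II members had their lowest value. The part of the mixed-in tissue in these low values was not tested. Without that mouse the median log2 difference of the members was 1.17, against 0.02 over all genes tested. Without NCD replicate 1, edgeR called 7 of 8 macrophage markers, 1 dendritic cell marker (Itgax), 8 of 10 endosomal genes, 4 of 11 interferon genes, 3 costimulatory genes, 1 class I gene (Tapbp) and 1 endothelial marker (Pecam1) as higher on HFD. It called 1 costimulatory gene (Lag3), 2 adipocyte markers (Plin1 and Lipe), 1 epithelial marker (Epcam) and 2 smooth muscle markers (Cnn1 and Myh11) as lower, of which Lag3 was named after its values had been seen. No list gene outside the seminal vesicle list passed when any one of the mice other than NCD replicate 1 was left out. Only 2 to 7 genes passed in the whole table then, so this loss cannot tell on which mice a list rested. Without HFD replicate 1 the median log2 difference of the members was 0.94, against 1.29 in all 6 mice. It was 1.82 against 1.76 for the endosomal genes and 2.29 against 2.30 for the macrophage markers.

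Likeness to the classical class II genes was described over the 6 mice by Pearson's r of log2(CPM + 0.5) with the mean standardized level of H2-Aa, H2-Ab1, H2-Eb1 and Cd74. The points share 2 diets and 1 high mouse, HFD replicate 1, so r is a description only. Of 9894 genes with a mean of at least 10 CPM, 248 (2.51%) had an r of at least 0.9. The 5 most alike outside all lists were Nkiras2 (0.989), Ctsk (0.987), Slc23a2 (0.985), Smc2 (0.984) and Fam50a (0.984). Ctsk, the lysosomal protease cathepsin K, had 8.19, 17.5 and 14.4 CPM on NCD and 144, 29.0 and 29.7 CPM on HFD, with the same mouse far above the others. Among the members, r was 0.977 for Ciita, 0.966 for H2-DMa, 0.958 for H2-DMb1 and 0.687 for Cd86, and for Cd80, below the CPM limit, it was 0.506. Itgax had 0.940, Adgre1 0.912 and Ctss 0.854. The other class II genes shown with the pair of boxes had lower values, 0.172 for H2-Oa, 0.265 for H2-Ob and 0.380 for H2-Eb2, all below the CPM limit.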

How the data were processed

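The authors deposited raw read counts per gene for 6 gWAT libraries, 1 column per mouse, without normalization. Per the labels, the libraries came from a stranded mRNA kit, and the submitters' processing notes name bcl2fastq 2.20.0, Trimmomatic, HISAT2 2.1.0, StringTie 1.3.4d, DESeq2 and the mm10 and GRCm38 builds. The sources used here do not name the step that counted reads, its annotation or its strand setting, so reads shared by related or overlapping genes could be split in an unknown way. No column was left out (0 columns).

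Of 19790 identifiers, 19742 were paired with a symbol and 17793 with a GENCODE exon length. Genes were kept by filterByExpr with a minimum count of 10 and a minimum total of 15, TMM factors set the library sizes, and the diets were compared by edgeR 4.0.16 (glmQLFit and glmQLFTest, R 4.3.3). Its p-values were adjusted by Benjamini-Hochberg over 15241 genes, and values under 0.05 were called. Standard errors were obtained from the F statistic, as the log2 fold change over its square root. Ratios were log2 of counts plus 0.5. The class II genes and the lists were chosen with earlier results of these data known. Named genes were all 9 members, up to 3 genes per list with the smallest p, a set of class II, interferon and marker genes given by name, and the 5 genes most like the chains, and 2 genes of that set are not reported here. A chi-square of counts between mice on 1 diet, divided by its degrees of freedom, was at least 116, so that none of the 6 libraries repeats another. Total counts were between 49575113 and 66360046 per library, so that the spread between mice, with 3 per diet, limited the precision more than depth did. Alternatives were other filters, scalings and tests (limma 3.58.1, DESeq2 1.42.0), the replicate number as a block, and each mouse left out. Figures were drawn with matplotlib 3.10.9.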

Additional observations from a re-analysis of the deposited data

How the results depend on the processing

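The direction of all 9 class II genes was kept under 15 alternatives (135 values, 93 on the same side of the threshold, 36 that no longer passed and 6 that newly passed), of which 1, without NCD replicate 1 and HFD replicate 1, was chosen after seeing the data. The number past an adjusted p under 0.05, 4 in the report, was 1 without a filter on low counts, 2 with upper-quartile scaling, 1 with total counts, 1 with limma-voom, 9 with DESeq2 and 0 to 4 with a mouse left out. Over all genes the number was 1139, with 74.6% higher on HFD. It was 3853 with DESeq2 (54.5% higher, 2276 genes without an adjusted p), 2 to 3234 with a mouse left out (3234 without NCD replicate 1, 51.5% higher) and 3865 without both replicates 1 (54.6% higher). With total counts less the seminal vesicle genes 80.7% were higher. Under total counts the median over all genes was 0.45 in place of -0.08, and changes under that scaling are relative to it. With the replicate number as a block, 12 genes passed, 0 of them class II genes, of which 5 had an unadjusted p under 0.05. Deviations of same-numbered mice correlated at -0.056, -0.046 and 0.0097, and not every mouse correlated best with its own number. With so few mice per diet, such low correlations cannot exclude a pairing, so whether the numbers pair the mice was not settled. In the last of these pairs, the count label of the HFD mouse also carries a different number from its sample title.

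Among the genes given here with a fold change and the first 3 by p of each list but the seminal vesicle one, signs turned only in ones that did not pass over all 6 mice. With total counts the log2 fold change was 0.40 for Cd4, 0.22 for Cd3e, 0.18 for Nfyc and 0.13 for Rfxank. With 1 mouse or both replicates 1 left out, values ran from -0.13 to 1.27 for Ifng, -0.55 to 0.14 for Cd4, -1.55 to 0.062 for B2m, -0.58 to 0.072 for Cd3e, -1.70 to 0.25 for Ms4a1, -0.027 to 0.83 for Pnpla2 and -0.025 to 0.46 for Mertk. The causes were not tested. Leaving aside the change of marker given with the ratio to Adgre1, of 70 values of the ratios under alternatives and 18 of FPKM, 0 moved by more than the spread between mice.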
